A study of Homo sapiens with 8 samples.

Results

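The aminoacyl-tRNA synthetases are described here by their transcript levels in 2 established human lung adenocarcinoma cell lines, ABC1 and HCC4006, with and without an electrophile. The family was taken as a fixed list of 35 gene symbols out of 57815 gene identifiers with a value, namely 19 cytosolic enzymes and 16 mitochondrial enzymes, whose names end in 2. The list goes by gene symbol and compartment. All 35 genes were found, and all 35 reached the mean of 1 FPKM required for a test in both lines. FPKM counts fragments relative to transcript length and library size, so it can be compared between genes within a library. Both lines lack mutations of *KEAP1* and *NRF2*, the sensor and the transcription factor of the response to electrophiles. Each line received either 100 μM DEM (diethyl maleate, a thiol-reactive compound that depletes glutathione) or its vehicle DMSO for 16 h. The 4 groups are ABC1 with vehicle, ABC1 with DEM, HCC4006 with vehicle and HCC4006 with DEM, with 2 libraries in each and 8 in all. Each kind of cell is represented by a single line, and the libraries are biological duplicates by the study's methods.

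Aminoacyl-tRNA synthetases join each amino acid to its tRNA and so supply the ribosome with charged tRNAs. Cytosolic protein synthesis and the translation of the few proteins encoded by mitochondrial DNA use separate sets of enzymes, all encoded in the nucleus, except that *GARS1* and *KARS1* each make a cytosolic and a mitochondrial form from the same gene. Enzymes for some amino acids (*EPRS1*, *IARS1*, *LARS1*, *MARS1*, *QARS1*, *RARS1* and *KARS1* in this list) assemble with 3 scaffold proteins into the multi-synthetase complex. Phenylalanine is charged in the cytosol by an enzyme of 2 subunits, *FARSA* and *FARSB*. Genes of many cytosolic synthetases are known targets of *ATF4*, the transcription factor of the integrated stress response, which raises amino acid supply when charged tRNAs run short or when other stresses inhibit translation initiation.

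The libraries were similar in yield. FPKM sums of the libraries stayed within 1.18-fold of each other, and 12515 to 13573 genes per library had at least 1 FPKM. The correlation of log2 values between the libraries of a group lay between 0.992 and 0.995 across genes, which are not independent replicates. Genes known to respond to electrophiles were called upregulated by DEM in both lines, 5 of 5 in each. *HMOX1*, which degrades heme, had 17.3 and 20.1 FPKM with vehicle and 182 and 174 FPKM with DEM in ABC1, and 5.59 and 5.89 against 57.4 and 55.4 FPKM in HCC4006. Among the markers of the tissue, the epithelial genes *EPCAM*, *CDH1*, *KRT8* and *KRT18* were expressed in both lines (92.4 FPKM or more in every library), while *KRT7*, a keratin of simple epithelia, lay between 10.4 and 25.9 FPKM in ABC1 and between 1460 and 2106 FPKM in HCC4006. The lung lineage genes *NKX2-1* and *NAPSA* lay between 12.9 and 47.1 FPKM in HCC4006, whereas in ABC1 they were at 0.763 FPKM or lower, and the surfactant genes *SFTPB* and *SFTPC* were at 0.277 FPKM or lower in every library. *NKX2-1* and *NAPSA*, which are commonly used to mark lung adenocarcinoma, were thus at or near background in ABC1. HCC4006 also expressed the mesenchymal genes *VIM* (227 to 283 FPKM) and *CDH2* (6.23 to 8.49 FPKM) and the squamous gene *TP63* (3.16 to 6.85 FPKM), which in ABC1 were at 0.909, 0.702 and 1.17 FPKM or lower. The other squamous genes listed, *KRT5* and *KRT14*, were at 0.125 FPKM or lower in every library. The mesenchymal gene *ZEB1* lay between 0.304 and 1.615 FPKM in HCC4006 and at 0.214 FPKM or lower in ABC1.

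The cytosolic enzymes were far more abundant than the mitochondrial enzymes in every library. In ABC1, the summed FPKM of the 19 cytosolic genes was 2120 and 2500 with vehicle and 2698 and 3361 with DEM, and that of the 16 mitochondrial genes was 190.2 and 211 with vehicle and 175 and 182 with DEM. In HCC4006, the cytosolic sum was 2514 and 2482 with vehicle and 3052 and 2908 with DEM, and the mitochondrial sum was 212 and 217 with vehicle and 189.5 and 187 with DEM. In both lines the DEM libraries thus lay above the vehicle libraries for the cytosolic sum and below them for the mitochondrial sum, without overlap. Without *SARS2*, whose FPKM is set against its counts further on, the mitochondrial sum was 166.8 and 187.2 with vehicle against 166.7 and 166.6 with DEM in ABC1, where the DEM libraries and the lower vehicle library were level, and 191 and 196 against 182 and 181 in HCC4006, a smaller gap than with *SARS2*. The ratio of the sums was 11.1 and 11.8 with vehicle against 15.4 and 18.5 with DEM in ABC1, and 11.9 and 11.4 against 16.1 and 15.5 in HCC4006. These sums carry no test, since exact permutation of 2 libraries against 2 gives a two-sided p of 0.3333 at the lowest. *GARS1* alone made up 16.2% to 35.2% of the cytosolic sum. Without the genes of dual location, *GARS1* and *KARS1*, the ratio was 8.95 and 9.12 against 11.6 and 13.1 in ABC1, and 8.31 and 8.18 against 9.98 and 10.4 in HCC4006. By the median of each class in place of its sum, the cytosolic value exceeded the mitochondrial value by 2.82 and 3.2 on the log2 scale with vehicle and by 3.25 and 3.18 with DEM in ABC1, which overlapped, and by 3.14 and 3.26 against 3.62 and 3.85 in HCC4006.

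**Figure D1:**
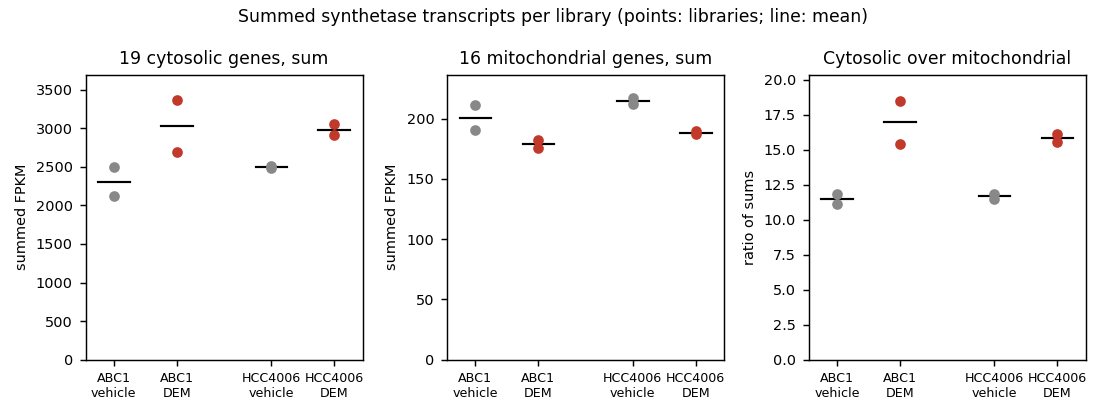
Summed FPKM of the 19 cytosolic genes (left), of the 16 mitochondrial genes (middle) and their ratio (right), with linear axes from 0, 1 point per library (grey, vehicle; red, DEM) and the mean of each group as a line. With DEM the ratio lay between 15.4 and 18.5, and with vehicle between 11.1 and 11.9.

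Within each class the levels spread widely. *GARS1*, which charges glycine, had the highest mean over the 8 libraries, 689.8 FPKM, followed among the cytosolic genes by *TARS1*, which charges threonine, with 324 FPKM. At the lower end of the cytosolic class stood *FARSB*, the beta subunit of the phenylalanine enzyme, and *VARS1*, which charges valine. *FARSB* had 17.7 and 18.8 FPKM with vehicle and 15.04 and 13.9 FPKM with DEM in ABC1, and 25.3 and 29.2 against 22.8 and 26.9 FPKM in HCC4006, where the groups overlapped. *FARSA*, the alpha subunit of the same enzyme, had between 76.0 and 154 FPKM, which is above *FARSB* in every library. *VARS1* had 56.4 and 61.9 FPKM with vehicle and 35.7 and 47.1 FPKM with DEM in ABC1, and 31.4 and 29.7 against 26.8 and 23.3 FPKM in HCC4006, so the DEM libraries were the lower ones in both lines.

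Among the mitochondrial genes, *IARS2*, which charges isoleucine, was the most abundant. *IARS2* had 40.6 and 51.7 FPKM with vehicle and 46.3 and 40.4 FPKM with DEM in ABC1, and 24.2 and 33.4 against 26.4 and 30.3 FPKM in HCC4006, and the groups overlapped in both lines. *CARS2*, for cysteine, came next, with 14.3 and 14.5 FPKM with vehicle and 15.5 and 15.1 FPKM with DEM in ABC1, and 31.6 and 31.1 against 32.3 and 34.7 FPKM in HCC4006. The lowest of all 35 were *MARS2*, for methionine, and *PARS2*, for proline. *MARS2* had 2.83 and 3.07 FPKM with vehicle and 2.44 and 2.25 FPKM with DEM in ABC1, and 3.74 and 4.56 against 2.89 and 3.498 FPKM in HCC4006. *PARS2* had 2.19 and 2.28 FPKM with vehicle and 2.15 and 1.48 FPKM with DEM in ABC1, and 1.98 and 2.54 against 1.82 and 2.051 FPKM in HCC4006. These 2 genes and the other low ones rest on few reads. The authors' mean of depth-scaled counts (the base mean) over the libraries of a line was 65.5 for *PARS2* in ABC1 and 67.7 for *FARS2* in HCC4006, the lowest of the family but for *SARS2*, which is described below, against 10329.5 and 14103.5 for *GARS1*. Counting error alone would then give a coefficient of variation of 12.4% for *PARS2* in ABC1 and 12.2% for *FARS2* in HCC4006, and of 0.984% and 0.842% for *GARS1*.

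**Figure D2:**
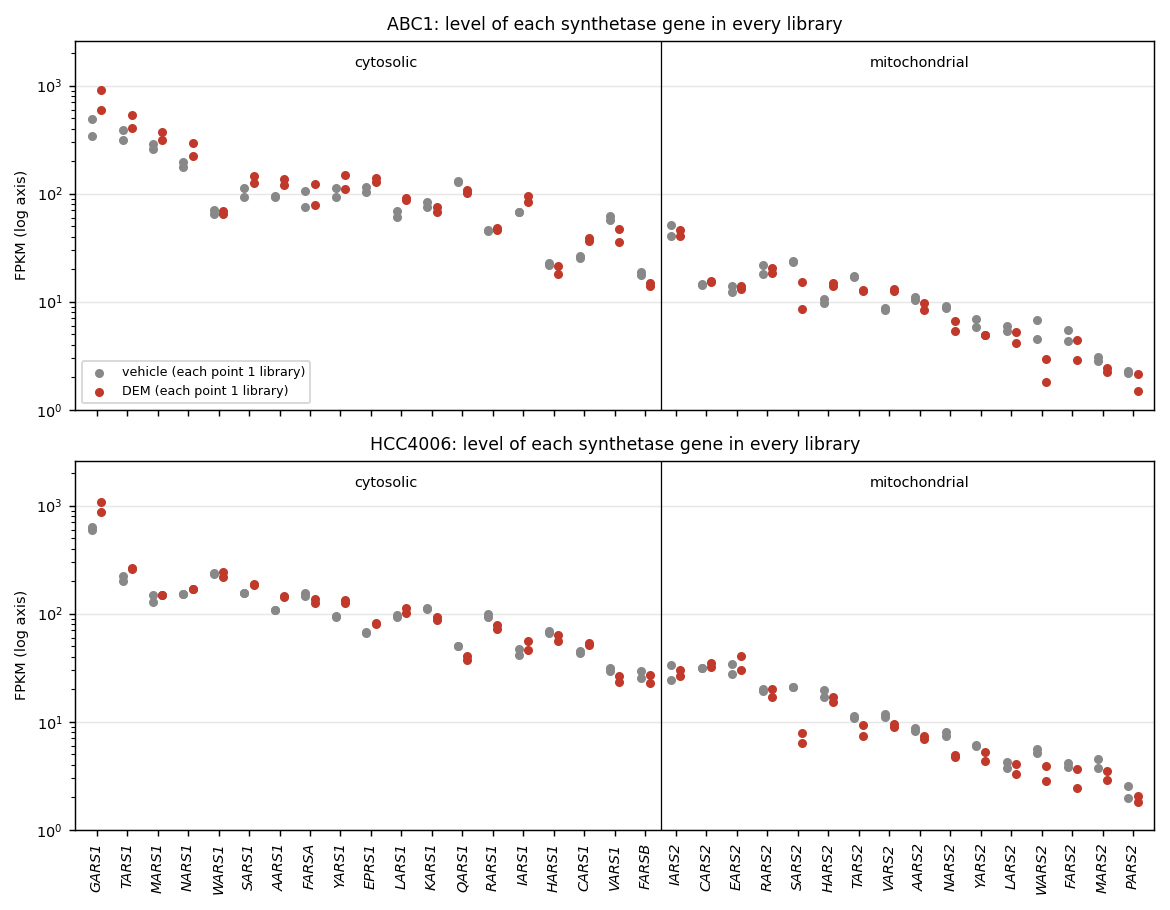
FPKM (log axis) of the 19 cytosolic genes (left of the line) and the 16 mitochondrial genes (right) in every library of ABC1 (top) and HCC4006 (bottom), ordered by mean within each class, with 1 point per library (grey, vehicle; red, DEM). The cytosolic genes reach from 13.9 FPKM (*FARSB*) to 1073 FPKM (*GARS1*), and the mitochondrial genes from 1.48 FPKM (*PARS2*) to 51.7 FPKM (*IARS2*).

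In HCC4006 cells, DEM raised 6 cytosolic synthetase transcripts and lowered 3, and it lowered 2 mitochondrial ones. The 6 that rose were *GARS1*, *YARS1*, *AARS1*, *TARS1*, *EPRS1* and *SARS1*, by 18.5% to 57.4% of the vehicle mean. The cytosolic transcripts that fell were *QARS1*, *RARS1* and *KARS1*, by 20.1% to 22.8%, and the mitochondrial transcripts that fell were *SARS2* and *NARS2*. These 11 of 35 genes (31.4%) were called by limma on log2(FPKM + 1) at a Benjamini-Hochberg adjusted p under 0.05 over all genes, where 19.1% of the 13542 genes tested were called, 8.45% upward and 10.7% downward. The median log2 fold change, on the log2(FPKM + 1) scale, was 0.16 for the cytosolic genes and -0.25 for the mitochondrial genes, beside -0.03 over all genes tested. In such bulk libraries, a lower level in every cell and fewer cells with the transcript cannot be told apart.

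*GARS1* (ENSG00000106105.9), on the plus strand of chromosome 7 of GRCh37 from 30620149 to 30673649, showed the largest rise of the family. It had 639.6 and 598 FPKM with vehicle and 1073 and 874 FPKM with DEM (log2 fold change 0.65, SE, the standard error, 0.11, limma adjusted p = 0.0136). *TARS1* (ENSG00000113407.9), on the plus strand of chromosome 5 from 33440802 to 33468196, had 203 and 222 FPKM with vehicle and 263 and 261 FPKM with DEM (log2 fold change 0.31, SE 0.07, limma adjusted p = 0.0336). The rise of *TARS1* was smaller than that of *GARS1*, and its DEM libraries lay closer together.

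The promoters of these 2 abundant genes share a motif. RefSeq promoter windows of 300 bases (250 before the start site and 50 from it, GRCh38.p14) were at hand for 30 of the 35 genes, and none was for *AARS2*, *LARS1*, *VARS1*, *VARS2* and *YARS1*. The letters TGATGNAAT on either strand, the C/EBP-ATF response element at which *ATF4* dimers bind, occurred in the windows of *GARS1* and *TARS1* alone, 6.67% of the members with a window, against 1.22% of the 27305 genes in the table. The matches are printed because *GARS1* and *TARS1* were the most abundant cytosolic members and were both called upregulated in HCC4006. Each is shown on the gene's own strand with 10 bases on either side and the match, which lies on the opposite strand, in capitals. The *GARS1* match lies 34 bases before the start site, within chr7:30594834-30594862 on the plus strand, and the *TARS1* match begins at base 2 from a start site, within chr5:33440956-33440984 on the plus strand.
GARS1: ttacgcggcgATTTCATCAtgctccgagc
TARS1: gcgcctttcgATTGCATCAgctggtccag
A match is only a run of letters, and binding was not measured here. *AARS1*, *EPRS1* and *SARS1* were called upregulated without these letters in their windows.

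*AARS1* (ENSG00000090861.11), which charges alanine, showed the smallest adjusted p of the cytosolic genes. It had 108 and 107 FPKM with vehicle and 144 and 147 FPKM with DEM (log2 fold change 0.43, SE 0.06, limma adjusted p = 0.00984). *YARS1*, for tyrosine, had 95.6 and 93.8 FPKM with vehicle and 133 and 126 FPKM with DEM (log2 fold change 0.45, SE 0.07, limma adjusted p = 0.0107). The vehicle libraries of either gene differed by less than 2 FPKM, and the rises were larger than the spread between duplicates in either group. *SARS1*, for serine, had 156 and 157 FPKM with vehicle and 183 and 186 FPKM with DEM (log2 fold change 0.24, SE 0.06, limma adjusted p = 0.0412). *EPRS1*, whose single chain charges both glutamate and proline, had 66.3 and 67.2 FPKM with vehicle and 79.7 and 81.4 FPKM with DEM (log2 fold change 0.27, SE 0.07, limma adjusted p = 0.0415). *EPRS1* was the only gene of the multi-synthetase complex among the 6 that rose.

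The 3 cytosolic transcripts that fell in HCC4006 all encode enzymes of the multi-synthetase complex. *QARS1* (ENSG00000172053.10), for glutamine, had 50.5 and 50.1 FPKM with vehicle and 37.3 and 40.4 FPKM with DEM (log2 fold change -0.37, SE 0.08, limma adjusted p = 0.0278). *RARS1* (ENSG00000113643.4), for arginine, had 93.8 and 99.2 FPKM with vehicle and 72.9 and 77.9 FPKM with DEM (log2 fold change -0.35, SE 0.07, limma adjusted p = 0.0267). *KARS1* (ENSG00000065427.10), for lysine, had 113 and 112 FPKM with vehicle and 86.4 and 93.0 FPKM with DEM (log2 fold change -0.32, SE 0.07, limma adjusted p = 0.0300). Of the 7 complex enzymes, then, 1 rose and 3 fell, while *IARS1*, *LARS1* and *MARS1* were not called, with log2 fold changes of 0.19, 0.17 and 0.10. Of the 12 cytosolic genes outside the complex, 5 rose and 0 fell by limma, with unadjusted p-values under 0.05 for 7 higher and 1 lower. Over all genes tested in HCC4006, 8.45% were called upward and 10.7% downward, and 36.8% had an unadjusted p under 0.05 by limma. The difference between the complex and the other cytosolic enzymes was not tested.

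The calls in HCC4006 rest on all 4 libraries. Of the 6 upward calls, 1 (*GARS1*) was kept without vehicle replicate 0, 2 (*AARS1* and *GARS1*) without DEM replicate 0, 0 without vehicle replicate 1 (6 cytosolic genes then being higher at an unadjusted p under 0.05 by limma) and 3 (*AARS1*, *GARS1* and *YARS1*) without DEM replicate 1, and the calls of *QARS1*, *RARS1*, *KARS1* and *NARS2* were lost whichever of the 4 libraries was left out. Without the minimum of 1 FPKM, *AARS1* was the only member called, the model of all 8 libraries kept *AARS1*, *QARS1*, *RARS1*, *NARS2* and *SARS2*, and a fit without the mean-variance trend kept *AARS1*, *GARS1*, *YARS1*, *NARS2* and *SARS2*.

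*SARS2* (ENSG00000104835.10), the mitochondrial serine enzyme, showed the largest change of the family in HCC4006. It had 20.7 and 20.9 FPKM with vehicle and 7.91 and 6.32 FPKM with DEM in HCC4006, a fall of the mean from 20.8 ± 0.110 to 7.12 ± 1.12 FPKM (SD, n = 2 each) (log2 fold change -1.43, SE 0.12, limma adjusted p = 0.00251). *SARS2* kept its call when any single library of HCC4006 was left out. It is also the gene whose counts are least like its FPKM. Its base mean in the authors' tables was 32.6 in ABC1 and 22.6 in HCC4006, which is 1.83 and 1.62 per FPKM, whereas the other members had 16.3 to 66.3 per FPKM. On GRCh37, *SARS2* occupies positions 39405906 to 39421403 of chromosome 19 (minus strand), where another protein-coding gene of the annotation (ENSG00000269547) overlaps it on the same strand, and the part of this overlap in its values was not tested.

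*NARS2* (ENSG00000137513.5), the mitochondrial asparagine enzyme, had 7.34 and 8.07 FPKM with vehicle and 4.67 and 4.92 FPKM with DEM in HCC4006 (log2 fold change -0.59, SE 0.12, limma adjusted p = 0.0245). Most of the other mitochondrial genes lay on the same side without being called. Of the 16, 14 had a log2 fold change below 0, where the median over all genes tested was itself -0.03. The share of all genes below 0 is not given here. For 10 of the 16, the DEM libraries lay wholly below the vehicle libraries (35.3% of all genes tested). They lay wholly above for 1, *CARS2* (29.3% of all genes tested). *WARS2*, for tryptophan, with -0.56 (adjusted p = 0.0656 by limma), and *TARS2*, for threonine, with -0.38 (adjusted p = 0.0927 by limma) came closest to a call. *EARS2*, for glutamate, had the highest log2 fold change of the class, 0.17, and its libraries overlapped.

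**Figure D3:**
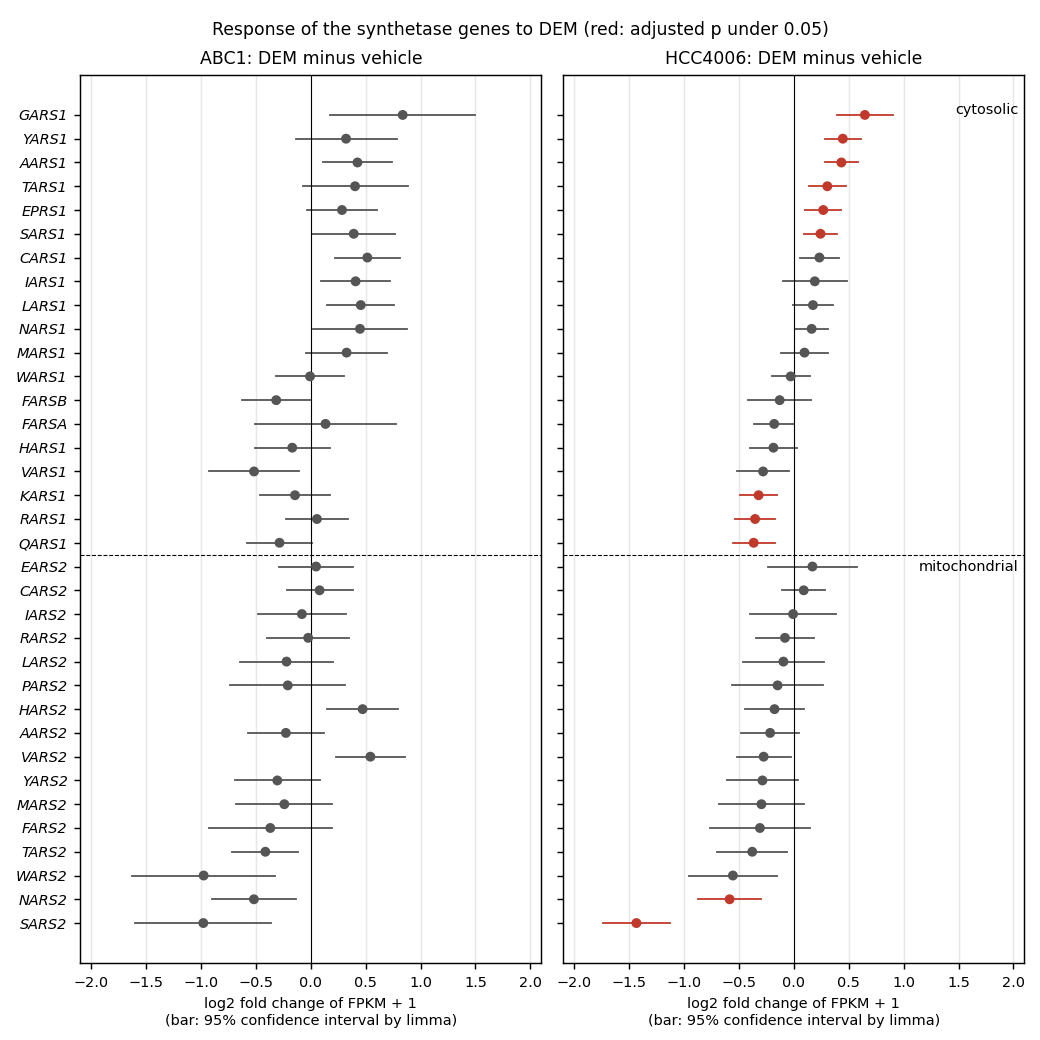
Log2 fold change of FPKM + 1, DEM minus vehicle, of each gene in ABC1 (left) and HCC4006 (right), with the 95% confidence interval by limma as a bar and red for an adjusted p under 0.05, cytosolic genes above the dashed line and mitochondrial genes below it, ordered by the value in HCC4006. In HCC4006 11 genes are red, from *GARS1* at 0.65 to *SARS2* at -1.43, and in ABC1 none is.

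In ABC1 cells the family leaned the same way by class, but no member passed the threshold. The count was 0 of 35 by limma, beside 1.2% of the 12635 genes tested in this line. At an unadjusted p under 0.05, 15 members (9 higher and 6 lower) were found, beside 21.9% of all genes. The median log2 fold change was 0.32 for the cytosolic genes and -0.22 for the mitochondrial genes, beside -0.02 over all genes. Both DEM libraries lay above both vehicle libraries for 11 cytosolic and 3 mitochondrial genes (25.5% of all genes tested) and below them for 4 cytosolic and 9 mitochondrial genes (28.2% of all genes tested). A model of all 8 libraries, which shares the estimate of the spread with HCC4006, called *AARS1*, *CARS1*, *LARS1*, *HARS2* and *VARS2* higher and *NARS2*, *SARS2* and *WARS2* lower, beside 10.9% of all genes, and without DEM replicate 1 *SARS2* was called in the fit of ABC1 alone (log2 fold change -1.35, adjusted p = 0.0475 by limma, from 0.0147 to 0.401 over the alternatives).

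*GARS1* had 343 and 491 FPKM with vehicle and 594 and 906 FPKM with DEM in ABC1 (log2 fold change 0.84, SE 0.27, limma adjusted p = 0.160). Its duplicates differed widely in either group, and the lower DEM library was still above the higher vehicle library. *TARS1* had 314 and 391 FPKM with vehicle and 406 and 531 FPKM with DEM (log2 fold change 0.40, SE 0.19, limma adjusted p = 0.292). For *AARS1* the values were 95.8 and 93.0 FPKM with vehicle and 135 and 119 FPKM with DEM (log2 fold change 0.43, SE 0.13, limma adjusted p = 0.146), close to that in HCC4006. *SARS1* had 93.2 and 112 FPKM with vehicle and 124 and 145 FPKM with DEM in ABC1. *EPRS1* had 104 and 116 against 128 and 140.3 FPKM, and *YARS1* had 93.8 and 112 against 111 and 149 FPKM. The groups overlapped for *YARS1*, and for *SARS1* and *EPRS1* they did not. *QARS1*, which fell in HCC4006, had 131 and 127 FPKM with vehicle and 109 and 102 FPKM with DEM in ABC1. *KARS1* had 74.9 and 83.8 against 68.2 and 75.2 FPKM and *RARS1* 45.9 and 45.0 against 46.5 and 48.1 FPKM. Of these 3, *QARS1* had lower values with DEM in both lines, *KARS1* overlapped in ABC1, and the DEM libraries of *RARS1* were the higher ones there.

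*SARS2* had 23.5 and 23.8 FPKM with vehicle and 8.64 and 15.2 FPKM with DEM in ABC1 (log2 fold change -0.98, SE 0.25, limma adjusted p = 0.114). The DEM duplicates of *SARS2* were far apart, and both were below the vehicle values. *NARS2* had 9.21 and 8.79 FPKM with vehicle and 5.40 and 6.62 FPKM with DEM (log2 fold change -0.52, SE 0.15, limma adjusted p = 0.144). *WARS2*, named here after its values were seen, had 4.48 and 6.81 against 1.80 and 2.95 FPKM (log2 fold change -0.98, SE 0.26, limma adjusted p = 0.121). These 3 mitochondrial genes had the lowest log2 fold changes of the class in both lines.

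Across the lines, 31 of the 35 genes had a log2 fold change of the same sign, against 67.6% of the 13682 genes tested in the model of all 8 libraries. The DEM libraries lay above the vehicle libraries in both lines for 9 genes, namely *AARS1*, *CARS1*, *EPRS1*, *GARS1*, *LARS1*, *NARS1*, *SARS1*, *TARS1* and *CARS2*, and below them in both lines for 10, namely *HARS1*, *QARS1*, *VARS1*, *AARS2*, *MARS2*, *NARS2*, *SARS2*, *TARS2*, *WARS2* and *YARS2*, so that 19 of 35 were separated the same way in both lines, beside 29.7% of all genes. *FARSA*, *RARS1*, *HARS2* and *VARS2* had opposite signs in the lines, and the last 3 were separated in opposite directions, as were 6.33% of all genes. The difference between the lines in the response, tested as an interaction term by limma, was called for 0 members, beside 0.636% of all genes (0.329% lower in HCC4006), and 3 members had an unadjusted p under 0.05 (15.1% of all genes).

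These 3, *HARS2*, *VARS2* and *RARS1*, were singled out after their values were seen. *VARS2* (ENSG00000137411.12), the mitochondrial valine enzyme, had 8.74 and 8.32 FPKM with vehicle and 12.6 and 13.2 FPKM with DEM in ABC1, and 11.7 and 11.1 against 9.51 and 8.99 FPKM in HCC4006. *HARS2* (ENSG00000112855.10), the mitochondrial histidine enzyme, had 10.6 and 9.68 against 14.9 and 14.03 FPKM in ABC1, and 17.1 and 19.5 against 17.0 and 15.2 FPKM in HCC4006. For both, DEM thus went with a higher level in ABC1, opposite to the rest of the class except *CARS2* and *EARS2*, and with a lower level in HCC4006. *HARS2* and *HARS1* lie head to head and overlap on opposite strands, *HARS2* on the plus strand of chromosome 5 of GRCh37 from 140071015 to 140078890 and *HARS1* on the minus strand from 140052620 to 140071122. In RefSeq on GRCh38.p14 their start sites, at 140691455 and 140691370, are separated by 84 bases. *HARS1* had 21.8 and 22.6 FPKM with vehicle and 21.5 and 18.03 FPKM with DEM in ABC1, so in that line the neighbours stood on opposite sides of their vehicle values. In all, 11 members overlap another protein-coding gene on the opposite strand, among them *MARS1* with *DDIT3*, and 4 members do so on the same strand. The libraries kept the strand, but the strand setting of the counting is not given in the sources used here, so the part of such neighbours in the values was not tested.

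Set against the enzyme for the same amino acid in the other compartment, most cytosolic genes stood higher with DEM. There are 17 such pairs, with *EPRS1* counted against both *EARS2* and *PARS2* and *FARS2* against both *FARSA* and *FARSB*. The ratio of cytosolic to mitochondrial FPKM ran from 1.29 (*HARS1* over *HARS2*) to 165 (*MARS1* over *MARS2*) over all libraries. Both DEM libraries had a higher ratio than both vehicle libraries in 13 pairs in ABC1 and in 12 in HCC4006, and a lower ratio in 2 and in 1. The share of other gene pairs so separated was not computed. For single genes, both DEM libraries lay above both vehicle libraries in 25.5% of all genes tested in ABC1 and 29.3% in HCC4006. They lay below them in 28.2% and 35.3%. The 2 pairs with a lower ratio in ABC1 were those for histidine and valine, and the pair in HCC4006 was that for arginine.

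By fold, the mean ratio of the serine pair differed most between DEM and vehicle in both lines, and it rests on *SARS2*, whose counts are least like its FPKM. *SARS1* over *SARS2* was 3.97 and 4.69 with vehicle and 14.4 and 9.53 with DEM in ABC1, and 7.50 and 7.50 against 23.2 and 29.5 in HCC4006. For asparagine, *NARS1* over *NARS2* was 19.03 and 22.6 against 41.3 and 43.99 in ABC1, and 20.6 and 18.8 against 36.1 and 34.6 in HCC4006. *NARS1* had 175 and 198 FPKM with vehicle and 223 and 291 FPKM with DEM in ABC1, and 151 and 152 against 169 and 170.3 FPKM in HCC4006, where its log2 fold change was 0.16 (adjusted p = 0.110 by limma). Of this pair, *NARS2* was called in HCC4006 and *NARS1* in neither line.

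For alanine, *AARS1* over *AARS2* was 8.70 and 8.89 with vehicle and 14.01 and 14.2 with DEM in ABC1, and 12.4 and 13.1 against 20.8 and 19.9 in HCC4006. *AARS2* itself had 11.01 and 10.5 against 9.66 and 8.42 FPKM in ABC1, and 8.71 and 8.21 against 6.90 and 7.38 FPKM in HCC4006. The duplicates of this ratio differed little in any group, while the DEM values stood well above the vehicle values. For threonine, *TARS1* over *TARS2* was 18.4 and 22.6 against 32.4 and 41.6 in ABC1, and 17.8 and 20.4 against 28.3 and 35.1 in HCC4006. *TARS2* had 17.1 and 17.3 against 12.5 and 12.7 FPKM in ABC1, and 11.4 and 10.9 against 9.30 and 7.43 FPKM in HCC4006. *TARS2* was therefore lower in every DEM library than in any vehicle library of its line. For tyrosine, *YARS1* over *YARS2* was 16.2 and 16.2 against 22.4 and 30.1 in ABC1, and 16.1 and 15.4 against 30.7 and 24.2 in HCC4006. *YARS2* had 5.80 and 6.91 against 4.93 and 4.94 FPKM in ABC1, and 5.94 and 6.09 against 4.33 and 5.22 FPKM in HCC4006. For proline, *EPRS1* over *PARS2* was 47.7 and 50.9 against 59.6 and 94.8 in ABC1, and 33.5 and 26.5 against 43.9 and 39.7 in HCC4006, a ratio that carries the counting error of *PARS2* given above.

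The valine pair ran the other way in ABC1. *VARS1* over *VARS2* was 6.46 and 7.44 with vehicle and 2.84 and 3.57 with DEM in that line, while in HCC4006, with 2.70 and 2.66 against 2.81 and 2.59, the libraries overlapped. *HARS1* over *HARS2* was 2.06 and 2.34 against 1.44 and 1.29 in ABC1. In HCC4006 it was 3.90 and 3.57 against 3.30 and 4.20, which overlapped. *RARS1* over *RARS2* was 4.64 and 5.16 against 4.28 and 3.85 in HCC4006. In all 3 of these pairs both DEM libraries of the cytosolic gene lay below both vehicle libraries in the line concerned. In ABC1 the mitochondrial gene was also higher with DEM. The log2 fold changes there were 0.47 for *HARS2* beside -0.17 for *HARS1*, and 0.54 for *VARS2* beside -0.52 for *VARS1*. In HCC4006 they were -0.08 for *RARS2*, whose libraries overlapped, beside -0.35 for *RARS1*.

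**Figure D4:**
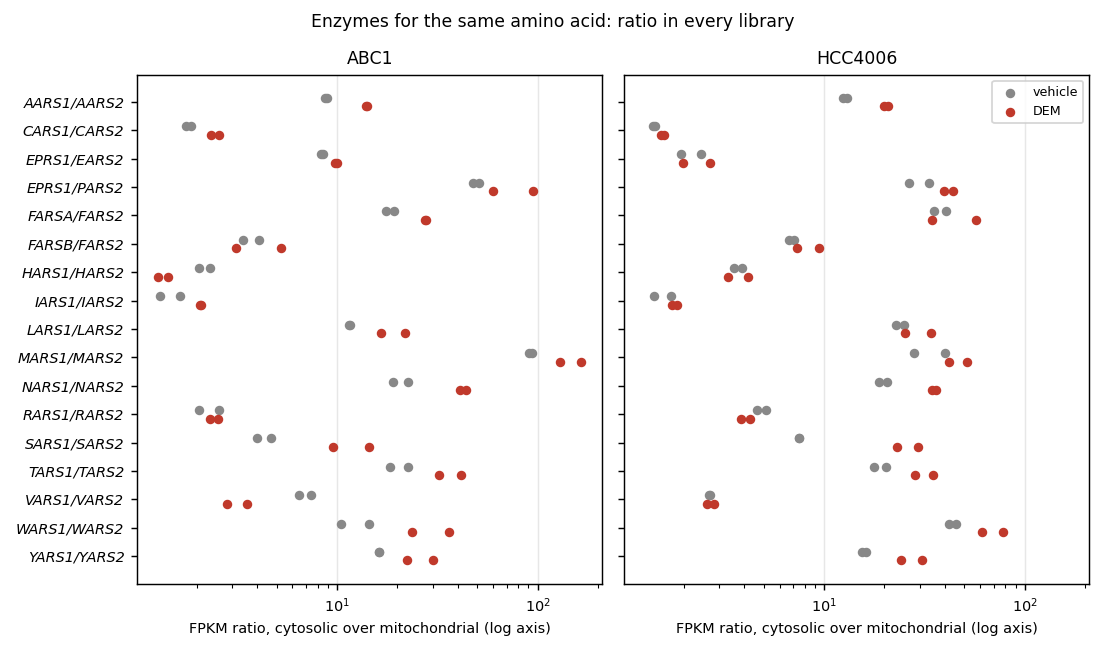
Ratio of cytosolic to mitochondrial FPKM (log axis, the same in both panels) of the 17 pairs of enzymes for the same amino acid in ABC1 (left) and HCC4006 (right), with 1 point per library (grey, vehicle; red, DEM). The red points lie to the right of the grey points in 13 pairs in ABC1 and in 12 in HCC4006, and to the left for *HARS1*/*HARS2* and *VARS1*/*VARS2* in ABC1 and for *RARS1*/*RARS2* in HCC4006. The share of other gene pairs so separated was not computed.

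Before any DEM the lines already differed in their synthetases. With vehicle, 14 members were higher and 10 lower in HCC4006 than in ABC1 by limma in the model of all 8 libraries, which is 68.6% of the family beside 66.9% of all genes (36.8% higher and 30.2% lower), so the share is near the background. At an unadjusted p under 0.05 the count was 25, beside 70% of all genes. The genes named in this comparison, other than *GARS1* and *TARS1*, were chosen after their values were seen. *WARS1* (ENSG00000140105.13), which charges tryptophan and is a known target of interferon gamma, differed most. It had 64.5 and 70.9 FPKM in ABC1 and 233 and 236 FPKM in HCC4006, a log2 difference of 1.78 (HCC4006 minus ABC1, SE 0.10, limma adjusted p = 2.34e-06). DEM left *WARS1* at 65.2 and 69.5 FPKM in ABC1 and at 219 and 241 FPKM in HCC4006, and its groups overlapped in both lines. *HARS1* came next, with 21.8 and 22.6 FPKM in ABC1 and 66.5 and 69.7 FPKM in HCC4006 (log2 difference 1.57, SE 0.11, limma adjusted p = 1.23e-05). Its neighbour *HARS2* was also higher in HCC4006 (log2 difference 0.79, SE 0.11, limma adjusted p = 0.000511). *EARS2*, *RARS1* and *CARS2* followed, with log2 differences of 1.17, 1.07 and 1.07.

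*QARS1* differed most in the other direction, with 131 and 127 FPKM in ABC1 and 50.5 and 50.1 FPKM in HCC4006 (log2 difference -1.34, SE 0.09, limma adjusted p = 6.73e-06). *MARS1*, *VARS1*, *TARS1* and *EPRS1* were lower in HCC4006 as well, with log2 differences of -0.97, -0.93, -0.72 and -0.71. All 7 complex enzymes differed between the lines, *RARS1*, *LARS1* and *KARS1* being higher in HCC4006 and *QARS1*, *MARS1*, *EPRS1* and *IARS1* lower, beside 66.9% of all genes. *GARS1* had 343 and 491 FPKM in ABC1 and 639.6 and 598 FPKM in HCC4006, a log2 difference of 0.59 that was not called (SE 0.24, limma adjusted p = 0.0588).

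Genes induced by interferon gamma were higher in the same line as *WARS1*. Of 10 listed, 5 reached the minimum level, and all 5 were called higher in HCC4006 with vehicle by limma, as were 36.8% of all genes. Their median log2 difference was 1.45, beside 0.07 over all genes. *IRF1*, the transcription factor, had 3.01 and 4.33 FPKM in ABC1 and 20.3 and 19.6 FPKM in HCC4006. *TAP1*, a peptide transporter, differed by 1.58 on the log2 scale. The interferon response element core, a pair of GAAA runs with any 2 bases between them on either strand, occurred in the promoter windows of *WARS1* and *EARS2*, 6.67% of the members with a window, against 4.38% of all genes in the table. The matches are shown, in capitals and on each gene's strand, because *WARS1* and *EARS2* were among the members with the largest excess in HCC4006. That of *WARS1* lies 55 bases before a start site, within chr14:100375383-100375412 on the minus strand of GRCh38.p14, and that of *EARS2* within chr16:23557554-23557583 on the minus strand.
WARS1: tttcagaaggGAAACTGAAAgaaagagggg
EARS2: cctgccacgcTTTCGCTTTCccaagctgaa
The share of the interferon response in the level of *WARS1* was not tested.

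**Figure D5:**
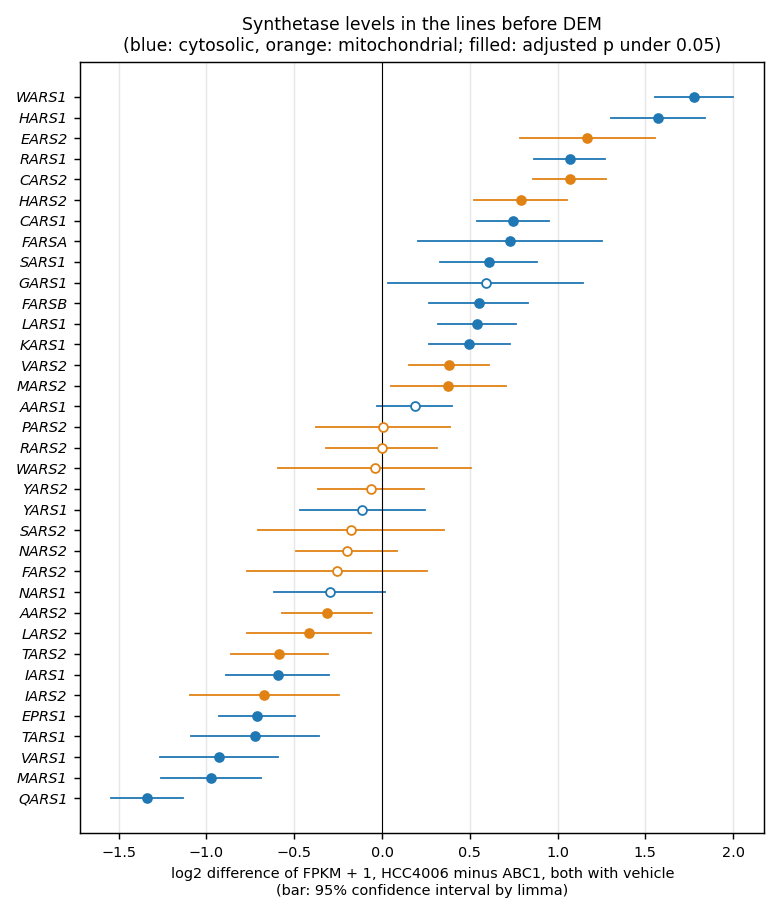
Log2 difference of FPKM + 1 between the lines with vehicle (HCC4006 minus ABC1) of all 35 genes (blue, cytosolic; orange, mitochondrial; filled, adjusted p under 0.05), with the 95% confidence interval by limma as a bar. Filled points number 24, with *WARS1* at 1.78 at one end and *QARS1* at -1.34 at the other.

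A further motif was about as frequent in the windows of the family as in those of all genes. The core of the antioxidant response element, TGACNNNGC on either strand, at which *NRF2* and small MAF proteins bind, occurred in the windows of 6 of the 30 members (20%), against 16.1% of all genes in the table. These were *GARS1*, *TARS1*, *KARS1*, *WARS1*, *NARS2* and *RARS2*. In HCC4006 *GARS1* and *TARS1* rose, *KARS1* and *NARS2* fell, and *WARS1* and *RARS2* were not called. The matches of *GARS1*, *KARS1* and *NARS2* are printed as examples from genes that went up and down, on each gene's strand with the match in capitals. They lie within chr7:30594776-30594804 on the plus strand, chr16:75647800-75647828 on the minus strand and chr11:78574915-78574943 on the minus strand of GRCh38.p14, which is 92, 153 and 69 bases before the start sites.
GARS1: gcgacccggcGCCGCGTCAcgcggtggtg
KARS1: agagctcaacTGACTGAGCtgtcaccgca
NARS2: tctcggctccTGACCCCGCcccctcccgc

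Few partners of the synthetases were called. None of the 3 scaffold genes of the multi-synthetase complex was called by limma in either line, with 1 at an unadjusted p under 0.05 in each. Over all genes, the share at an unadjusted p under 0.05 by limma was 21.9% in ABC1 and 36.8% in HCC4006. *AIMP2*, named after its values were seen, had 97.3 and 114 FPKM with vehicle and 137 and 154 FPKM with DEM in ABC1, and 115 and 110.2 against 137 and 125 FPKM in HCC4006. *EEF1E1*, the smallest scaffold protein, was lower in HCC4006 than in ABC1 with vehicle (10.6 and 14.01 against 48.2 and 46.9 FPKM, log2 difference -1.88, adjusted p = 1.52e-05 by limma). Of 16 genes of tRNA maturation and export, 1 rose and 2 fell in HCC4006 (18.8%, near the 19.1% of all genes) and 0 were called in ABC1 by limma, where 1 was higher and 4 were lower at an unadjusted p under 0.05. *XPOT*, which carries tRNAs out of the nucleus, had 74.7 and 78.2 FPKM with vehicle and 135 and 123 FPKM with DEM in HCC4006 (log2 fold change 0.75, SE 0.08, limma adjusted p = 0.00395). In ABC1 *XPOT* had 123 and 145 against 225 and 289 FPKM, a log2 fold change of 0.92 (adjusted p = 0.0696 by limma), so its DEM libraries were the higher ones in both lines. *METTL1*, which methylates tRNAs at guanosine, and *RPP30*, a subunit of RNase P, fell in HCC4006 (log2 fold changes -0.51 and -0.42).

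Most translation factors were not called in either line, although the shares called in HCC4006 were above that of all genes. Of 9 mitochondrial translation factors, *MTIF3* (an initiation factor) rose and *GFM1*, *TUFM* and *TSFM* (elongation factors) fell in HCC4006 (log2 fold changes 0.47, -0.46, -0.28 and -0.42 in this order), which is 44.4% beside 19.1% of all genes, and 6 of the 9 had a log2 fold change above 0. Of 16 cytosolic translation factors, 1 rose and 4 fell in HCC4006 (31.2%, beside 19.1% of all genes). A log2 fold change below 0 was found for 15 of the 16, and the share of all genes below 0 is not given here. Their median was -0.09, beside -0.03 over all genes tested in this line. *EIF2S2*, the beta subunit of eIF2, rose by 0.32 on the log2 scale, and *EIF2B5*, *EIF2B1* and *EIF2B2*, subunits of the exchange factor of eIF2, and *EIF4A1*, a helicase, fell (log2 fold changes -0.74, -0.60, -0.45 and -0.44). *TSFM*, *EIF2S2* and *EIF2B5* were named after their values were seen. In ABC1 none of these 25 genes was called by limma, with 3 higher and 6 lower at an unadjusted p under 0.05. The share of all genes under that limit was 21.9% in ABC1 and 36.8% in HCC4006, which also stands beside the counts that follow. Of the 4 genes that form charged glutaminyl-tRNA or formylmethionyl-tRNA in mitochondria, 0 were called in either line by limma, with 1 at an unadjusted p under 0.05 in HCC4006 and 0 in ABC1. Among 7 genes of selenocysteine insertion and proofreading (6 tested in ABC1), 0 were likewise called by limma in either line, with 1 at an unadjusted p under 0.05 in each, and among the 5 kinases and regulators that act on eIF2 alpha 0 were called, again with 1 in each.

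The median response of the cytosolic synthetases was smaller than that of the other listed genes of the *ATF4* pathway. Of 30 listed *ATF4* pathway genes other than the synthetases, 10 of the 28 tested in ABC1 rose and 0 fell, and 22 of the 30 tested in HCC4006 rose and 1 fell. The share called by limma was 35.7% in ABC1, beside 1.2% of all genes, and 76.7% in HCC4006, beside 19.1%. In ABC1 the listed genes had a median log2 fold change of 0.77, beside 0.32 for the cytosolic synthetases, and in HCC4006 the medians were 0.59 and 0.16. The difference between these lists was not tested. *ATF4* itself had 249 and 292 FPKM with vehicle and 365 and 429.6 FPKM with DEM in ABC1 (log2 fold change 0.55, SE 0.16, limma adjusted p = 0.132, not called), and 188 and 202 against 339 and 322 FPKM in HCC4006 (log2 fold change 0.76, SE 0.07, limma adjusted p = 0.00285). *ASNS*, asparagine synthetase, had 31.9 and 39.9 against 71.1 and 77.6 FPKM in ABC1, and 41.5 and 47.8 against 74.7 and 80.2 FPKM in HCC4006. Its log2 fold changes were 1.04 and 0.78 (adjusted p = 0.0482 and 0.00614 by limma), above that of every synthetase in the line concerned. *DDIT3* and *TRIB3*, a transcription factor and a pseudokinase of the same response, had log2 fold changes of 1.40 and 0.98 in ABC1 and of 1.24 and 1.05 in HCC4006, all of which were called.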

How the data were processed

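The authors made strand-specific poly(A)-selected libraries from biological duplicates, sequenced them on an Illumina NextSeq and deposited FPKM values per gene, estimated with Cufflinks on hg19 according to the methods. The submitters' processing notes also name bcl2fastq 2.15.0, cutadapt 1.15, STAR 2.5.3a, Cuffnorm, HTSeq and DESeq2. From the authors' deposited comparison tables (DESeq2 base means, fold changes and p-values) only the base mean, a signal of depth-scaled counts, was used. It sums to 13786938 in ABC1 and 13957320 in HCC4006, which is the only measure of depth used here.

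From the FPKM values, limma 3.58.1 (R 4.3.3) was fitted with a mean-variance trend to log2(FPKM + 1) of genes whose mean reached 1 FPKM, per line for DEM against vehicle, and over all 8 libraries for the interaction and for the lines with vehicle. The pseudocount of 1 makes fold changes of low genes smaller than their ratios. Calls needed a Benjamini-Hochberg adjusted p under 0.05 over all genes. The fit was also run on data simulated from its own estimates of spread, with planted changes larger than any called among the members. Such a run does not measure the error rate in the real data.

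Values in every library are given for members called in either line, for the 2 most and the 2 least abundant members of each class, and for pairs with opposite signs and a call. Other genes named, up to 3 called per list, came from lists, and any beyond that are said to be named after their values were seen. Members and lists were chosen with earlier results of these data known. Positions are from GENCODE v44lift37 on GRCh37, promoters from RefSeq on GRCh38.p14. Alternatives were pseudocount, minimum, scaling, trend, model, replicate block and leaving out each library, and, chosen after seeing the data, sums without *SARS2*.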

Additional observations from a re-analysis of the deposited data

Results flagged for a closer look

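The estimated responses of 3 members to DEM had opposite signs in the lines, with every DEM library of each line on the side concerned. *RARS1* in ABC1 had a log2 fold change of only 0.06 (95% confidence interval -0.23 to 0.34). *HARS2* in HCC4006 had -0.18 (95% confidence interval -0.44 to 0.09). Both of these intervals include 0, so an opposite response in both lines is not shown for these genes. For *VARS2*, the response in HCC4006 minus that in ABC1 was -0.82 on the log2 scale (95% confidence interval -1.14 to -0.50, adjusted p = 0.0632 by limma). Without the minimum of 1 FPKM, the interaction of *VARS2* was called (adjusted p = 0.0181 by limma, from 0.0181 to 0.247 over the alternatives). For *HARS2* the difference was -0.65 (95% confidence interval -1.02 to -0.27, adjusted p = 0.131 by limma), and for *RARS1* it was -0.41 (95% confidence interval -0.69 to -0.13, adjusted p = 0.184 by limma). None of the differences is called in the fit reported, where these 3 are the only members with an unadjusted p under 0.05, beside 15.1% of all genes.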

How the results depend on the processing

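In HCC4006, cytosolic members called upward numbered 1 without the FPKM minimum, 3 without the mean-variance trend, 1 in the model of all 8 libraries and 0 to 3 when a library was left out. Cytosolic members called downward numbered 0 without the minimum, 0 without the trend and 0 to 0 when a library was left out (3, 3 and 3 to 5 at an unadjusted p under 0.05 by limma). Mitochondrial members called downward numbered 0 without the minimum and 1 to 1 when a library was left out. In ABC1, where 0 members were called, the model of all 8 libraries called 3 cytosolic members upward, 2 mitochondrial members upward and 3 downward, and mitochondrial members called downward numbered 0 to 1 when a library was left out, the 1 being *SARS2* without DEM replicate 1. A fit with the replicate number as a replicate block called 11 cytosolic members upward and 2 downward and 2 mitochondrial members upward and 3 downward in ABC1 (1185 and 1163 of all genes), and in HCC4006 it changed no call. The numbers pair only 2 libraries of each group (correlation of the differences between replicates 0.258 in ABC1 and 0.054 in HCC4006), so they are not taken as a pairing. The interaction was called for 1 member, *VARS2*, without the minimum. The median log2 fold change of the cytosolic members lay between 0.21 and 0.40 (ABC1) or between 0.10 and 0.17 (HCC4006) when a library was left out, and was 0.19 with median-of-ratios scaling in HCC4006. That of the mitochondrial members lay between -0.27 and -0.17 (ABC1) or between -0.27 and -0.18 (HCC4006), and in ABC1 was -0.28 with a pseudocount of 0.1 and -0.15 with a minimum of 5 FPKM. The mean ratio of the class sums was 9.03 (ABC1, vehicle), 12.4 (ABC1, DEM), 8.24 (HCC4006, vehicle) and 10.2 (HCC4006, DEM) without *GARS1* and *KARS1*, and 8.06, 9.30, 9.19 and 13.3 in the same order by the median log2 of each class. Without *SARS2*, chosen after seeing the data, it was 13.03, 18.2, 12.91 and 16.4. Of the counts and summary values under the alternatives run, 48 moved in this way, 152 did not, and none changed sign against a call. Leaving out a library leaves a group of 1, which is assumed to vary like the others. The cause of these shifts was not tested. Depth limits the lowest members, with a counting error of up to 12.4%, and *SARS2* (17.5% and 21.0%).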
